A study of Mus musculus with 6 samples.

Results

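The 2′-5′ oligoadenylate synthetase (Oas) genes were followed across 6 bulk RNA libraries of the ischemic lobe of mouse liver. The family was taken as the rows of the count table named Oas1a, Oas1b, Oas1c, Oas1g, Oas2, Oas3, Oasl1 and Oasl2, which gave 8 of 54532 genes, and 7 of the 8 had enough reads for the genome-wide test. The IRF8-cKO group held 3 libraries, IRF8-cKO-71, then IRF8-cKO-88 and then IRF8-cKO-106, from C57BL/6 mice whose hepatocytes lack interferon regulatory factor 8, and the WT group held 3 libraries, WT-14, then WT-44 and then WT-77, from wild-type C57BL/6 mice. Values of single libraries are given in that order. All 6 libraries came from liver with the same injury, a clamp of the blood supply for 1 h at body temperature followed by 12 h of restored flow. No library is of uninjured liver. The labels name neither the promoter that drives the recombinase nor whether each library is a separate animal. The p-values therefore measure the spread between these libraries, which may be technical.

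Oas enzymes are sensors of double-stranded RNA whose genes are switched on by interferons. On binding double-stranded RNA the active members join ATP into 2′-5′-linked oligoadenylates (2-5A), a second messenger of the antiviral response. The mouse carries many copies of Oas1, of which several have lost the synthetase activity. The Oasl proteins carry ubiquitin-like domains at their end.

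The family lies in 2 places on chromosome 5 (mm10). Oasl2 (chr5:114896936-114912234, plus strand) and Oasl1 (chr5:114923240-114937915, plus strand) are neighbours separated by 11005 bases. The other 6 members lie 5792417 bases further on. There Oas2 (chr5:120730333-120749853), Oas3 (chr5:120753098-120777661), Oas1c (chr5:120800194-120812514), Oas1g (chr5:120876142-120887613) and Oas1a (chr5:120896256-120907521) are on the minus strand, and Oas1b (chr5:120812635-120824163) is on the plus strand. Oas1c and Oas1b start back to back with 120 bases between them. All 8 are protein-coding genes in the deposited annotation except Oas1b, which is listed as a polymorphic pseudogene. In common laboratory mouse strains Oas1b carries a premature stop codon that is linked to susceptibility to flaviviruses.

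Promoter windows from RefSeq (GRCm38.p6, 250 bases before to 50 after the annotated start) were at hand for 6 of the 8 members. They were searched on both strands for the core of the interferon-stimulated response element (ISRE), which is GAAA, any 2 bases and again GAAA, the site through which interferon-activated transcription complexes and several IRF proteins act. The core was found in 4 of the 6 windows (66.7%), against 3.44% of 32851 windows of the same length over all genes, and in 9 of 17 other type I interferon-stimulated genes with a window (52.9%). The composite motif GGAA, any 2 bases and GAAA, which IRF8 can bind together with ETS factors, was found in 0 of the 6 windows, against 2.72% of all windows. A match describes letters in a window and shows no binding. The windows of Oas1a (chr5:120907476-120907775, minus strand), Oas1g (chr5:120887564-120887863, minus strand), Oas1c (chr5:120812465-120812764, minus strand) and Oas3 (chr5:120777610-120777909, minus strand) are shown because they hold the core, and that of Oasl1 (chr5:114922990-114923289, plus strand) because Oasl1 had the highest level of the family. Each is written 5′ to 3′ with the ISRE core in capitals.
Oas1a: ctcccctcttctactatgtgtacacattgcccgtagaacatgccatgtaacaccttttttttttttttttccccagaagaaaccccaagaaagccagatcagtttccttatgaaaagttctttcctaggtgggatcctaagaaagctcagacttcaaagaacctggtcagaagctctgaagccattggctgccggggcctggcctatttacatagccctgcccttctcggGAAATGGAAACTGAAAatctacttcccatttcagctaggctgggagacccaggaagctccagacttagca
Oas1g: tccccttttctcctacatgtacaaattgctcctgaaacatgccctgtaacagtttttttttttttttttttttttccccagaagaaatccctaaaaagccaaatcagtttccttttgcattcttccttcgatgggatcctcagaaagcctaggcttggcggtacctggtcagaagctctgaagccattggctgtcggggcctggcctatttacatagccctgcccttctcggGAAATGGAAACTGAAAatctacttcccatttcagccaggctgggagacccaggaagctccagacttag
Oas1c: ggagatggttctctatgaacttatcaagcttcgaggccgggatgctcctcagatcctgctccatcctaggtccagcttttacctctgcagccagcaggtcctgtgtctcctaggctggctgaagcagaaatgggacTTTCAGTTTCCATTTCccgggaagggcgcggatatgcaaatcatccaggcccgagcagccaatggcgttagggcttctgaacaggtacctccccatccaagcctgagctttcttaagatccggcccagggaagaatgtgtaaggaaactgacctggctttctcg
Oas3: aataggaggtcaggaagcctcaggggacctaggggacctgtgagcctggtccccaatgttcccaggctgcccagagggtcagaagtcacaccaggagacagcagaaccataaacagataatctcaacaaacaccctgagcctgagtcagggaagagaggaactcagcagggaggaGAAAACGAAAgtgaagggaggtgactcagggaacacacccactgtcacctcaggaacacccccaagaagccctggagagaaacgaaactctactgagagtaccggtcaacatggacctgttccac
Oasl1: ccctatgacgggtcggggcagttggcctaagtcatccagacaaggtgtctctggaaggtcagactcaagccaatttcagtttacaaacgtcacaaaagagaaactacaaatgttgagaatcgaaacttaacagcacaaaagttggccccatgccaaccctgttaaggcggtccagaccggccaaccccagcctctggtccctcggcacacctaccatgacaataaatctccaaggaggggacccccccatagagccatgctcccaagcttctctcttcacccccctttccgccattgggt

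Oas1a and Oas1g shared the 16-base stretch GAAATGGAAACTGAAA, in which 2 matches of the core overlap. It ended 5 bases before the annotated start of Oas1a and 3 bases before that of Oas1g, and the 2 windows were 85.3% identical over an alignment of 306 columns. Oas1c had the stretch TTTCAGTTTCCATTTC, also with 2 overlapping matches, at chr5:120812613-120812628. That stretch lies in the gap between the 2 divergent genes, and 6 bases separate it from the start of Oas1b. It is the reverse complement of the stretch in Oas1a and Oas1g. The windows of Oas1a, Oas1g and Oas1c thus hold the same 16 bases, in Oas1c on the opposite strand, and are not separate sequences. Oas3 had a single match, GAAAACGAAA, at 75 to 66 bases before its start. The windows of Oasl1 and Oasl2 held no match, which says only that these letters are not in these 300 bases.

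No Oas member passed the genome-wide test between IRF8-cKO and WT libraries. In edgeR's quasi-likelihood test 0 of 7 tested members had an adjusted p under 0.05, against 1.39% of the 13134 genes tested (0.449% higher and 0.937% lower in IRF8-cKO), and 0 of 7 had an unadjusted p under 0.05, against 24.1% of all genes. Of the 7, 6 had log2 fold changes (IRF8-cKO over WT) below 0, against 48.5% of all genes, and their median was -0.66, against 0.03 over all genes. Groups did not overlap for 1 of 7 members, Oasl2, against 28.9% of all genes. The 95% interval of the log2 fold change included 0 for each of the 7 and reached below -1 for each of the 7. At this depth and spread neither no difference nor a 2-fold lower level can be set aside for any of them. DESeq2 called 0 of 8 members (1 at an unadjusted p under 0.05, Oasl2), against 9.46% of the 14273 genes with an adjusted p. The limma-voom fit called 0 of 7 (0 at an unadjusted p under 0.05), against 0.845%. For DESeq2 and limma-voom the share of all genes at an unadjusted p under 0.05 was not taken, so those counts have no comparison. Fewer cells of a type and less RNA per cell cannot be told apart in tissue RNA of this kind.

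**Figure D1:**
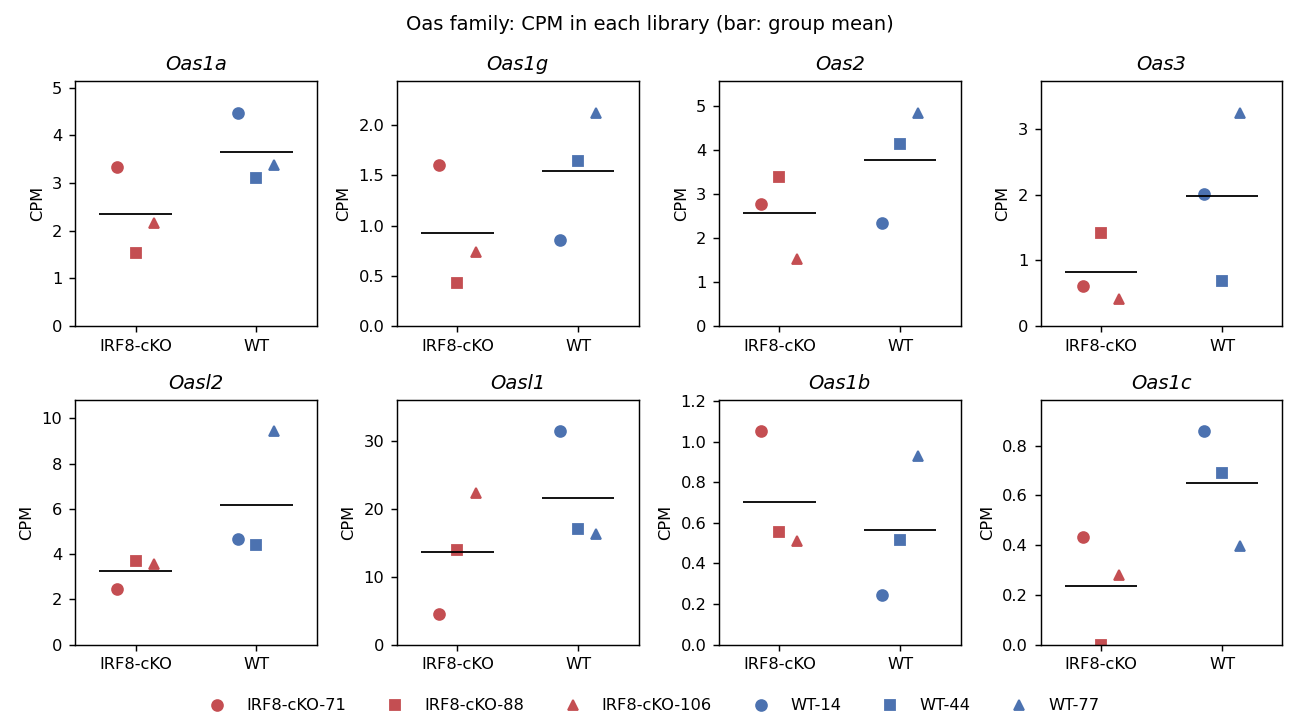
Normalised level (CPM, counts scaled to library size, linear axis from 0) of each Oas member in each library, IRF8-cKO in red and WT in blue, with a bar at the group mean of 3 libraries. The libraries of the groups overlap for each member except Oasl2, which stood at 2.46 to 3.70 CPM in IRF8-cKO and 4.40 to 9.42 CPM in WT.

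The libraries held 16385964 to 16805830 counts in IRF8-cKO and 14758237 to 16010064 counts in WT, and the 8 members together took 271, 407 and 684 reads in the IRF8-cKO libraries, against 765, 373 and 612 reads in the WT libraries. After scaling to the library total adjusted by edgeR's TMM factor, 1 read was worth 0.0463 to 0.0616 CPM in IRF8-cKO and 0.0612 to 0.0862 CPM in WT. Irf8 itself, the deleted gene, stood at 5.67, 6.71 and 4.16 CPM in the IRF8-cKO libraries, against 9.30, 9.48 and 10.3 CPM in the WT libraries (log2 fold change -0.81, SE 0.33, edgeR adjusted p = 0.174). The 3 IRF8-cKO values lay below the 3 WT values. Which cells the remaining reads came from was not tested. The hepatocyte markers Alb, Apoa1, Ttr, Cps1 and Asgr1 summed to 58100 to 70000 CPM in IRF8-cKO and 73300 to 110000 CPM in WT. Most of each sum was Alb, at 46900 to 58800 CPM in IRF8-cKO and 61700 to 88600 CPM in WT. Of the 5 markers 0 were called, against 1.39% of all genes. Groups did not overlap for 2, Alb and Ttr, against 28.9% of all genes. Cps1 had a log2 fold change of 0.45, and the other 4 were below 0.

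The most abundant member was Oasl1, which makes no 2-5A and in the mouse is known to block translation of Irf7 mRNA and so to dampen interferon production. It had 72, 228 and 485 reads in the IRF8-cKO libraries, which is 4.43, 14 and 22.4 CPM, against 513, 197 and 245 reads in the WT libraries, which is 31.4, 17.0 and 16.3 CPM. IRF8-cKO-106 lay above WT-44 and WT-77, so the groups overlapped, while IRF8-cKO-71 was the lowest of the 6. The means were 13.6 ± 9.01 CPM in IRF8-cKO and 21.5 ± 8.54 CPM in WT (SD, n = 3 each), with a log2 fold change of -0.66 (95% interval -1.82 to 0.51, SE 0.52, edgeR adjusted p = 0.457). The value rested on single libraries. It was -0.23 without IRF8-cKO-71 and -1.20 without IRF8-cKO-106. Within the IRF8-cKO group alone Oasl1 spanned 5.06-fold, against 1.93-fold within WT.

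Oasl1 and Oas3 varied most between libraries of a group on the log2 scale. Their within-group standard deviation of log2 CPM was 0.92 each, higher than in 90.5% of tested genes for Oasl1 and 90.6% for Oas3, against a median of 0.44 over all tested genes. Oas1a was the steadiest member, with 0.42.

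Oasl2, the Oasl gene whose mouse protein keeps synthetase activity, was the 1 member whose groups did not overlap. It had 40, 60 and 77 reads in the IRF8-cKO libraries, or 2.46, 3.70 and 3.56 CPM, against 76, 51 and 142 reads in the WT libraries, or 4.65, 4.40 and 9.42 CPM. WT-77 stood well above WT-14 and WT-44, which were close to the highest IRF8-cKO library. The log2 fold change was -0.93 (95% interval -1.87 to 0.02, SE 0.43, edgeR adjusted p = 0.216). Exact permutation of its log2 CPM (two-sided) gave p = 0.1, the lowest value possible with 3 against 3 libraries. Without WT-77 the log2 fold change was -0.49. Of the 7 tested members Oasl2 had the lowest adjusted p.

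**Figure D2:**
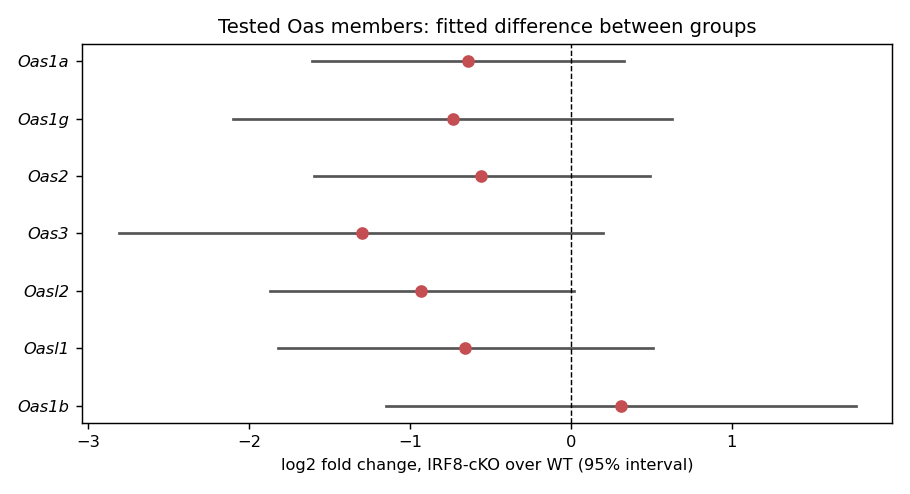
Log2 fold change (IRF8-cKO over WT, points) with its 95% interval (lines) for the 7 tested members from edgeR's quasi-likelihood fit, n = 3 libraries per group. Each interval crosses 0, with Oasl2 closest to the line at -1.87 to 0.02 and Oas3 the widest at -2.81 to 0.20.

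Oas1a and Oas1g encode the mouse Oas1 proteins known to make 2-5A. Oas1a stood at 3.33, 1.54 and 2.17 CPM in the IRF8-cKO libraries, against 4.47, 3.10 and 3.38 CPM in the WT libraries. IRF8-cKO-71 was within the range of the WT libraries, and the other 2 IRF8-cKO libraries lay below them (log2 fold change -0.64, 95% interval -1.61 to 0.33, edgeR adjusted p = 0.385). Oas1g stood at 1.60, 0.431 and 0.740 CPM in the IRF8-cKO libraries, against 0.857, 1.64 and 2.12 CPM in the WT libraries. Again IRF8-cKO-71 was among the WT libraries and IRF8-cKO-88 was the lowest (log2 fold change -0.73, 95% interval -2.10 to 0.63, edgeR adjusted p = 0.484). Without IRF8-cKO-71 the log2 fold change was -0.96 for Oas1a and -1.35 for Oas1g, and without IRF8-cKO-88 it was -0.41 and -0.40.

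The split of reads between these 2 copies is uncertain. Of the 100-base words in the GENCODE M21 transcripts of Oas1a, 40.9% also occur in those of Oas1g, and of the words of Oas1g 31.2% occur in Oas1a. Reads from the shared stretches may have been dropped or assigned to either gene. The pair as a whole had 4.93, 1.97 and 2.91 CPM in the IRF8-cKO libraries, against 5.32, 4.74 and 5.51 CPM in the WT libraries. The groups still overlapped, and Oas1a made up 67.5% to 78.1% of the pair's CPM in IRF8-cKO and 61.4% to 83.9% in WT. For Oas2, Oas3, Oasl1, Oasl2 and Oas1b 0 of their 100-base words occurred in another gene. For Oas1c 4.23% did, all shared with the antisense gene Gm43069, which had 0 reads. Gm43069 overlaps Oas1c by 5430 bases, and how reads over both genes were counted is not given. Those 0 reads therefore do not show that Oas1c lost none.

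Oas2 and Oas3 encode the larger synthetases, in which the synthetase domain is repeated. In human cells OAS3 is known as the main source of 2-5A during viral infection. Oas2 stood at 2.77, 3.39 and 1.53 CPM in the IRF8-cKO libraries, against 2.33, 4.14 and 4.84 CPM in the WT libraries. WT-14 lay below IRF8-cKO-71 and IRF8-cKO-88 (log2 fold change -0.56, 95% interval -1.60 to 0.49, edgeR adjusted p = 0.484). Oas3 stood at 0.616, 1.42 and 0.416 CPM in the IRF8-cKO libraries, from 9 to 23 reads, against 2.02, 0.690 and 3.25 CPM in the WT libraries, from 8 to 49 reads. WT-44 was within the IRF8-cKO range and WT-77 was the highest. Oas3 had the lowest log2 fold change of the family, -1.30 (95% interval -2.81 to 0.20, SE 0.68, edgeR adjusted p = 0.262), and it was -1.95 without IRF8-cKO-88 and -0.76 without WT-77.

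Oas1b and Oas1c, which lack synthetase activity, had the fewest reads in total of the 8 members. Oas1b stood at 1.05, 0.554 and 0.509 CPM in the IRF8-cKO libraries, from 9 to 17 reads, against 0.245, 0.517 and 0.929 CPM in the WT libraries, from 4 to 14 reads. It was the 1 tested member with a log2 fold change above 0, at 0.31 (95% interval -1.15 to 1.77, edgeR adjusted p = 0.800), and the sign turned without library 71 of IRF8-cKO (-0.071) and without library 14 of WT (-0.061). Oas1c was too low for the test, with 7, 0 and 6 reads in the IRF8-cKO libraries, against 14, 8 and 6 reads in the WT libraries. In CPM these were 0.431, 0 and 0.278 in IRF8-cKO, against 0.857, 0.690 and 0.398 in WT, and IRF8-cKO-71 and WT-77 overlapped. The 0 in IRF8-cKO-88 allows up to 3 reads, or 0.185 CPM, by counting error alone, and exact permutation of its log2 CPM (two-sided) gave p = 0.2. Of the remaining mouse Oas1 genes, Oas1d, Oas1e, Oas1f and Oas1h had 0 reads in all 6 libraries, which allows up to 0.139 to 0.185 CPM in an IRF8-cKO library and 0.184 to 0.259 CPM in a WT library.

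Levels of different members were compared per gene length, in RPKM, the CPM per kilobase of gene length. In IRF8-cKO the order was Oasl1 (5.23 ± 3.45), Oas1a (1.24 ± 0.48), Oas2 (0.576 ± 0.213), Oasl2 (0.508 ± 0.106), Oas1g (0.395 ± 0.259), Oas1b (0.353 ± 0.150), Oas3 (0.115 ± 0.0749) and Oas1c (0.0982 ± 0.0908, SD, n = 3). In WT it was Oasl1 (8.26 ± 3.27), Oas1a (1.94 ± 0.382), Oasl2 (0.966 ± 0.444), Oas2 (0.847 ± 0.292), Oas1g (0.658 ± 0.273), Oas1b (0.283 ± 0.173), Oas3 (0.281 ± 0.181) and Oas1c (0.270 ± 0.0965, SD, n = 3). Both groups put Oasl1 first and Oas1a next. Between neighbours in the order, the library ranges were apart for Oas1a and Oas2 and for Oas1b and Oas3 in IRF8-cKO, and for Oasl1 and Oas1a and for Oas1a and Oasl2 in WT. All other neighbours overlapped, Oasl1 and Oas1a in IRF8-cKO among them, since IRF8-cKO-71 had 1.70 RPKM of Oasl1 and 1.76 RPKM of Oas1a.

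Summed over the 8 members, the level was 5.95, 8.21 and 11.4 RPKM in the IRF8-cKO libraries, against 16.8, 11.1 and 12.6 RPKM in the WT libraries. IRF8-cKO-106 lay just above WT-44. Oasl1 supplied 28.6%, 65.6% and 75.4% of that sum in the IRF8-cKO libraries, against 71.7%, 58.6% and 49.5% in the WT libraries. The other 7 members together had 12.3, 11.0 and 9.21 CPM in the IRF8-cKO libraries, against 15.4, 15.2 and 24.4 CPM in the WT libraries, and these sums did not overlap. Leaving out Oasl1 was chosen after its values were seen, and no test was made of the sum.

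**Figure D3:**
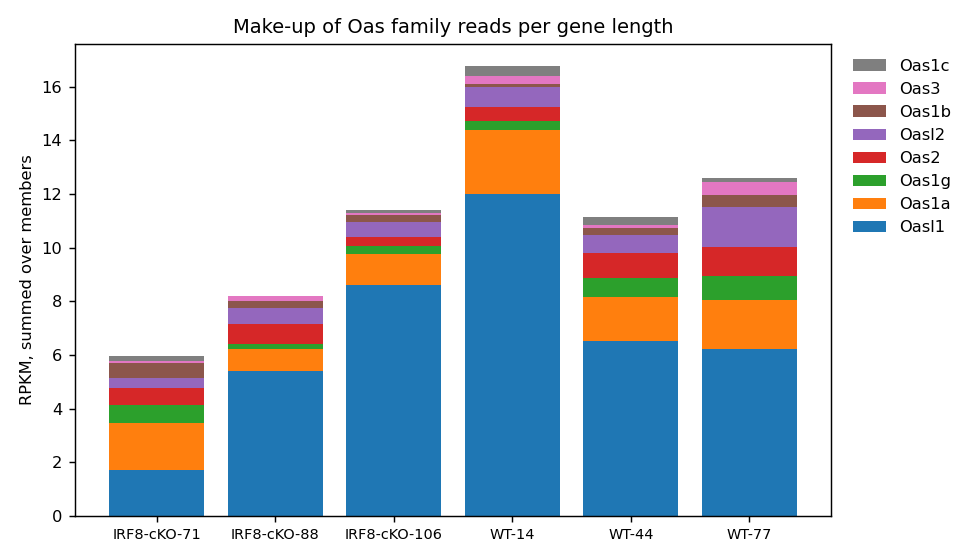
Summed level of the 8 members per gene length (RPKM, stacked bars from 0) in each library, with IRF8-cKO libraries on the left and WT libraries on the right. Oasl1 is the largest layer in 5 of the 6 libraries, and in IRF8-cKO-71 it makes up 28.6% of the sum, against 75.4% in IRF8-cKO-106.

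The members did not share 1 order of libraries. Relative to its own mean over the 6 libraries, each of the 7 tested members was above 0 in WT-77 (log2 CPM with a prior count of 2), 4 were in WT-14 and 5 in WT-44. In the IRF8-cKO libraries, in order, 3, 2 and 1 of the 7 were above their mean. WT-77 was the highest library for Oas1g, Oas2, Oas3 and Oasl2, WT-14 for Oas1a and Oasl1, and IRF8-cKO-71 for Oas1b. The closest pair of profiles was Oas2 and Oasl2, with a root mean square difference of 0.52 on the log2 scale over 6 libraries, followed by Oas1a and Oas1g with 0.53. The most distant was Oas1b and Oasl1, with 1.35, and the adjacent genes Oasl1 and Oasl2 differed by 0.77.

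By a fixed rule the 5 protein-coding genes with the most similar profile were also taken, out of 10555 tested genes with a mean log2 CPM of at least 1. Closest to the mean profile of the 7 tested members were Zkscan6, C5ar1, Pmvk, Ctdsp2 and Igfbp7, with root mean square differences of 0.071 to 0.097 on the log2 scale over 6 libraries. Their log2 fold changes lay between -0.64 and -0.60, and their edgeR adjusted p between 0.219 and 0.313. For single members the nearest genes were Ninj1 for Oas1a (0.112), Slc16a10 for Oas1b (0.159), Stard13 for Oas1g (0.124), Iqcb1 for Oas2 (0.065), Peg10 for Oasl1 (0.074) and Abcc1 for Oasl2 (0.067). Oas3 was nearest to Ifit2, an interferon-stimulated gene, at 0.322. With 10555 candidates and 6 libraries such likeness is a description only.

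The genes that act with the Oas enzymes on 2-5A gave 0 of 5 calls, with a median log2 fold change of -0.32, against 0.03 over all genes. Pde12, a phosphodiesterase that degrades 2-5A, was at -0.35 (edgeR adjusted p = 0.485). Abce1 was at 0.24, Akap7 at -0.32 and Enpp1 at 0.03.

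Among 12 other sensors of RNA and DNA, 1 rose (against 0.449% of all genes), 0 fell and 11 did not pass, with a median log2 fold change of 0.02. Mavs, the adaptor on mitochondria that relays signals from RIG-I and MDA5, rose 2.90-fold, to 89.9 ± 14.4 CPM in IRF8-cKO, against 30.9 ± 10.4 CPM in WT (SD, n = 3 each, log2 fold change 1.54, SE 0.32, edgeR adjusted p = 0.0495). Its call stood at the threshold. It held in 1 of 6 fits with a library left out, the one without IRF8-cKO-88 (highest adjusted p 0.204, without WT-44), and in 3 of 8 other settings (highest 0.0618). The double-stranded RNA sensors Ifih1 and Eif2ak2 had log2 fold changes of -0.01 and 0.18, and do not stand for the whole list. Of the 12, 6 had log2 fold changes below 0, against 48.5% of all genes. Groups did not overlap for 3 of the 12, Mavs among them, against 28.9% of all genes.

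Interferon ligands were near the limit of detection. Of 9 ligand genes 7, Ifnb1 and Ifna4 among them, had 0 reads in all 6 libraries. Ifng had 1 read in IRF8-cKO-71 and 1 in WT-77, and Ifnk had 6 reads in IRF8-cKO-106 and 1 in WT-14. The receptor and signalling list gave 0 of 13 calls with a median of -0.12. Its lowest p values belonged to Socs1, an inhibitor of JAK kinases (log2 fold change -2.69, edgeR adjusted p = 0.0887), and to Jak2 (-1.02, edgeR adjusted p = 0.0910), while Stat2, which carries the interferon signal to the ISRE, was at 0.52.

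Among 7 tested interferon regulatory factors 1 fell (against 0.937% of all genes), 0 rose and 6 did not pass, with a median of -0.12. Irf7, whose mRNA the Oasl1 protein restrains, fell 2.46-fold, to 16.0, 18.3 and 14.9 CPM in the IRF8-cKO libraries, against 37.6, 46.1 and 37.3 CPM in the WT libraries (log2 fold change -1.30, SE 0.25, edgeR adjusted p = 0.0446). The Irf7 values of the groups lay apart, whereas those of Oasl1 overlapped. Whether the 2 genes differ in their response was not tested. The Irf7 call held in 1 of 6 fits with a library left out, the one without IRF8-cKO-88 (highest adjusted p 0.192, without WT-77), and in 6 of 8 other settings (highest 0.103, with library totals only).

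The 22 other type I interferon-stimulated genes had a median log2 fold change of -0.98, with 19 below 0, against 48.5% of all genes. Of the 22, 2 fell (against 0.937% of all genes), 0 rose (against 0.449%) and 20 did not pass. Groups did not overlap for 12 of the 22, against 28.9% of all genes and 1 of 7 Oas members. These 12 include Lgals3bp, which was higher in IRF8-cKO (57.2 to 84.1 CPM, against 46.0 to 54.9 CPM in WT). The others of the 12 were lower in IRF8-cKO. Ifit3, which binds foreign RNA together with other Ifit proteins, fell 6.23-fold, to 3.14, 3.26 and 3.28 CPM in the IRF8-cKO libraries, against 15.1, 16.6 and 28.8 CPM in the WT libraries (log2 fold change -2.64, edgeR adjusted p = 0.0243). The antiviral GTPase gene Mx2 fell 4.08-fold, to 4.19, 3.94 and 3.70 CPM in the IRF8-cKO libraries, against 10.8, 14.1 and 23.4 CPM in the WT libraries (log2 fold change -2.03, edgeR adjusted p = 0.0430). Both calls held in 3 of 6 fits with a library left out and were lost without IRF8-cKO-106, WT-44 or WT-77 (highest adjusted p 0.152 for Ifit3 and 0.192 for Mx2). The latter fits called 20, 1 and 0 genes over all genes, so the losses are not particular to Ifit3 and Mx2. The Ifit3 call held in 8 of 8 other settings (highest adjusted p 0.035). The Mx2 call held in 6 of 8 and was lost with library totals only (adjusted p 0.0643) and with limma-voom (0.0514). With a library left out the log2 fold change ranged from -2.81 to -2.30 for Ifit3 and from -2.25 to -1.66 for Mx2. In both genes WT-77 was the highest library, as for Oasl2, Oas3, Oas2 and Oas1g. Whether the Oas members differ from these genes in their response was not tested.

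**Figure D4:**
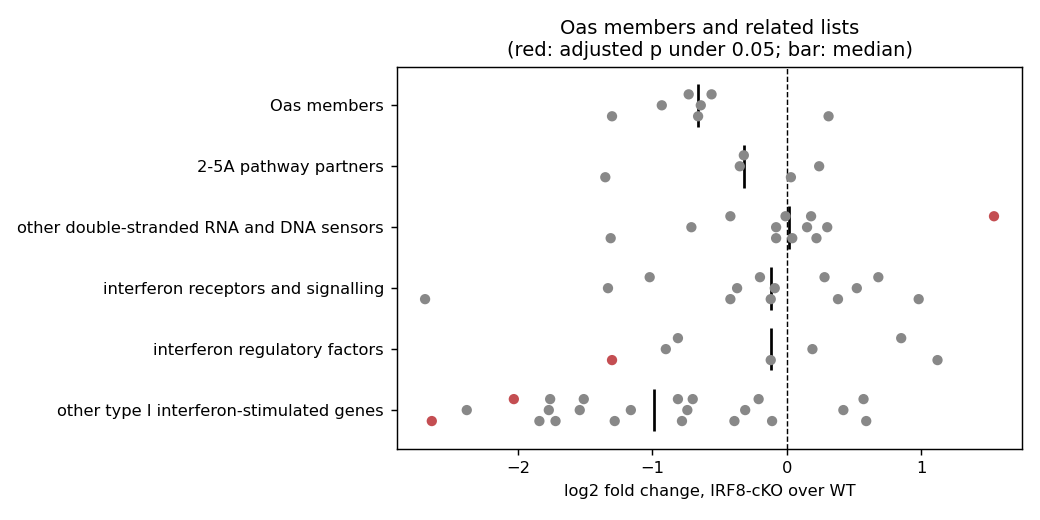
Log2 fold changes (IRF8-cKO over WT) of the tested Oas members and of 5 related gene lists, 1 point per gene, red where the adjusted p was under 0.05 in edgeR, with a bar at each median. The Oas median is -0.66 with 0 red points, and that of the other interferon-stimulated genes is -0.98 with 2 red points, Ifit3 and Mx2.

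**Figure D5:**
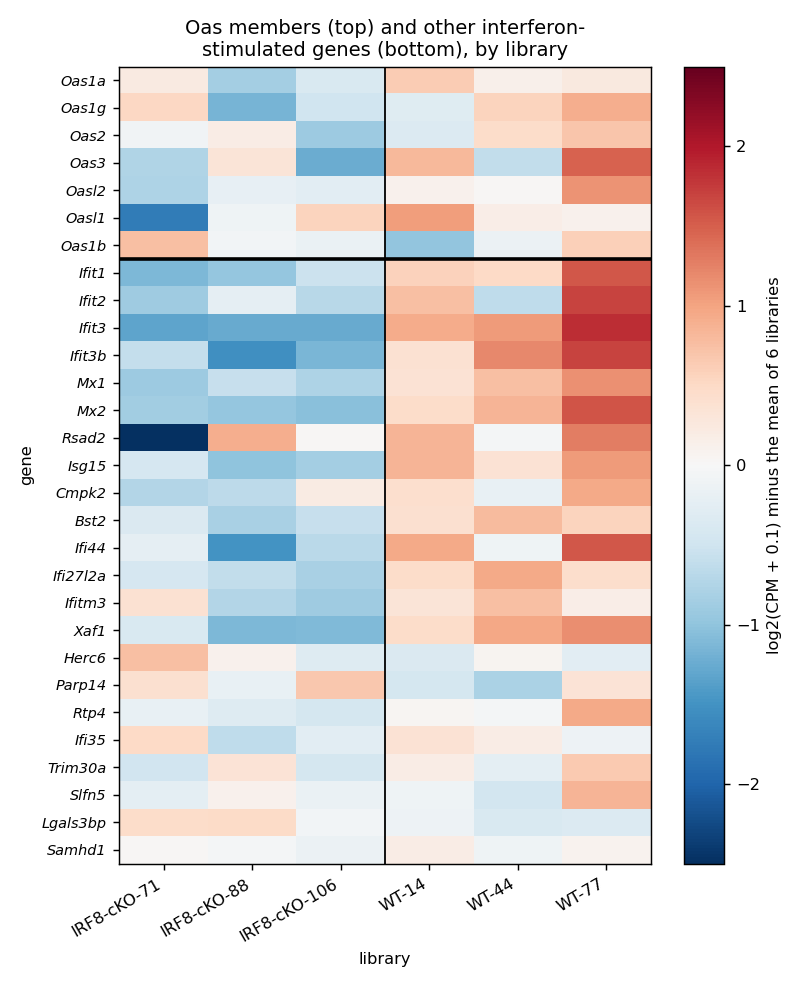
Level of each gene in each library, as log2(CPM + 0.1) minus the gene's mean over the 6 libraries (colour, blue low and red high), for the 7 tested Oas members above the line and 22 other interferon-stimulated genes below it. Ifit3 and Mx2 are blue in all 3 IRF8-cKO libraries and red in all 3 WT libraries, while Oasl1 is darkest blue in IRF8-cKO-71 and red in IRF8-cKO-106.

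Markers of other cell types were summed in each library. Neutrophil markers (S100a8, S100a9, Ly6g, Retnlg, Csf3r and Cxcr2) summed to 20.7 to 44.5 CPM in IRF8-cKO and 160 to 202 CPM in WT. Of the 5 tested, 3 fell (S100a8, S100a9 and Retnlg), against 0.937% of all genes. Each of these 3 calls was lost without WT-44 and without WT-77, and those of S100a9 and Retnlg also without IRF8-cKO-106 (highest edgeR adjusted p 0.152 for S100a8, 0.152 for S100a9 and 0.172 for Retnlg). Those fits called at most 20 genes over all genes, so these losses are not particular to the neutrophil markers. Monocyte and macrophage markers summed to 48.2 to 66.6 CPM in IRF8-cKO and 67.4 to 84.1 CPM in WT (0 of 6 called). The members of that sum differed in sign, with Cd68, Itgam, Ccr2 and Ly6c2 below 0 and Csf1r (log2 fold change 0.68) and Adgre1 above it. Adgre1 stood at 6.90, 4.93 and 2.91 CPM in the IRF8-cKO libraries, against 1.53, 1.03 and 1.73 CPM in the WT libraries (log2 fold change 1.76, edgeR adjusted p = 0.0797). Kupffer cell markers summed to 68.2 to 194 CPM in IRF8-cKO and 45.7 to 59.0 CPM in WT (0 of 5 called). Their median log2 fold change was 1.37, with 0 of 5 below 0, against 48.5% of all genes. In edgeR 4 of 5 had an unadjusted p under 0.05, against 24.1% of all genes. Groups did not overlap for 3 of 5, against 28.9%. Dendritic cell markers summed to 3.75 to 4.06 CPM in IRF8-cKO and 2.26 to 3.65 CPM in WT, T and NK cell markers to 1.57 to 3.20 CPM in IRF8-cKO and 1.04 to 1.90 CPM in WT, and B cell markers to 0.308 to 0.616 CPM in IRF8-cKO and 0.367 to 1.55 CPM in WT. Of each of these lists 0 markers had 0 reads in all 6 libraries. The dendritic cell sums of the groups lay apart, but the 2 tested markers of that list differed in sign. Clec9a had a log2 fold change of 1.21 (edgeR adjusted p = 0.208) and Itgax of -0.13 (edgeR adjusted p = 0.901). Endothelial (42.1 to 89.4 CPM in IRF8-cKO, 34.8 to 59.9 CPM in WT) and stellate cell sums (51.9 to 101 CPM in IRF8-cKO, 52.5 to 79.0 CPM in WT) overlapped. Cholangiocyte (12.7 to 40.4 CPM in IRF8-cKO, 46.6 to 92.6 CPM in WT) and erythroid sums (91.6 to 133 CPM in IRF8-cKO, 188 to 265 CPM in WT) did not. In the erythroid sum the groups lay apart for Hba-a1 and Hbb-bs (log2 fold changes -1.54 and -0.91) and overlapped for Alas2 (-0.09). The part of these cell types in the levels of the Oas members was not tested.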

How the data were processed

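RNA of the injured lobe was extracted with Trizol and made into libraries with an NEBNext Ultra kit, per the labels' protocols. HISAT2 2.0.5, featureCounts 1.5.0-p3 and the build mm10 are named in the submitters' processing notes. The deposited table holds raw counts per gene, whole numbers without normalisation, with gene lengths. How featureCounts treated strand and multiply mapped reads is not given in the sources used here. All 8 members had the same coordinates in GENCODE M21.

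Groups were taken from the titles. Counts were fitted on the whole table with edgeR 4.0.16 in R 4.3.3: filterByExpr (minimum count 10, minimum total 15), TMM factors, a quasi-likelihood fit (robust) on group alone, a two-sided test and Benjamini-Hochberg adjustment over 13134 genes, with a threshold of 0.05. The biological coefficient of variation was 37.1%. Standard errors were the absolute log2 fold change over the root of F, and 95% intervals used the t quantile at the fit's degrees of freedom. CPM and RPKM used TMM-adjusted totals. Exact permutation tests used log2(CPM + 0.5).

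DESeq2 1.42.0, limma-voom (limma 3.58.1), 3 other scalings, 2 other filters, a fit without robust shrinkage and each library left out in turn were alternatives. For called genes of the related and marker lists these were added after the data were seen. The members and lists were chosen with earlier results of these data known. Genes were named by rule: all 8 members, Irf8, and in each list the genes that passed or else the 2 with the lowest p, plus nearest profiles. Stat2, Adgre1, Csf1r, Cd68, Itgam, Ccr2, Ly6c2, Ifih1, Eif2ak2, Abce1, Akap7, Enpp1 and the ligands were named in addition, after their values were seen. Some results that the rule would name are not reported here.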

Additional observations from a re-analysis of the deposited data

How the results depend on the processing

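The count of Oas members called was 0 in each of the 14 alternatives, from 0 to 0 with a library left out. Of 97 member and alternative combinations, 95 kept the sign of the log2 fold change. The 2 that changed sign were those of Oas1b without library 71 of IRF8-cKO (-0.071) and without library 14 of WT (-0.061), against 0.31 on all libraries, and the range of Oas1b with a library left out was -0.071 to 0.89. With a library left out, Oasl1 ranged from -1.20 to -0.23, Oas3 from -1.95 to -0.76 and Oasl2 from -1.12 to -0.49. The lowest adjusted p of any member under any alternative was 0.115, for Oas3 without IRF8-cKO-88. Library totals alone moved the median of all genes to 0.25, and the Oas members with a negative log2 fold change stayed negative there. Over all genes edgeR called 182, against 0 without WT-77, 1 without WT-44, 20 without IRF8-cKO-106, 1205 without IRF8-cKO-88, 82 with library totals only, 1723 without the filter, 1350 by DESeq2 and 111 by limma-voom. The cause was not tested. No paired analysis was possible because the groups share no replicate number. Oas1c, with 0 to 14 reads per library, was below the filter.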
